A study of Mus musculus with 29 samples.

Results

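The snoRNA families in small RNA libraries of gonadal white adipose tissue (gWAT) were compared between diabetes-prone (DP) and diabetes-resistant (DR) mice. The members were selected on measured counts, as the entries typed as snoRNA whose mean raw count over the 29 libraries was above 10, which kept 99 of 391 snoRNA families among 5355 entries of all types. All mice were females of the strain NZO/HIBomDife, genetically identical, held on a high-fat diet (HFD) for 5 weeks and killed at week 10, and they were classed as DP or DR from a risk score before hyperglycemia began. The groups held 15 DP and 14 DR libraries, each named by 1 library number, and nothing in the labels tied libraries to a litter or to a sequencing batch. A difference in whole gWAT cannot tell fewer cells of a type from less RNA per cell.

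Small nucleolar RNAs guide the chemical modification of other RNAs inside the nucleolus. C/D box snoRNAs (SNORD) carry a box C near the 5′ end and a box D near the 3′ end, and direct ribose methylation. H/ACA box snoRNAs (SNORA) fold into hairpins, end in an ACA triplet and direct the conversion of uridine to pseudouridine. Small Cajal body RNAs (scaRNA) do the same for spliceosomal RNAs. A few, such as U3 and U8, are needed for the cleavage of the ribosomal RNA precursor. In mammals most are cut out of the introns of a host gene, often one for a ribosomal protein or a non-coding RNA of the Snhg type. Small RNA libraries hold short inserts, so a snoRNA longer than the insert is counted through its fragments, and a count here is not a count of whole snoRNAs.

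Of the 99 families, 56 matched at least 1 mouse gene by symbol or RefSeq synonym, giving 70 genes in the GENCODE annotation of GRCm38. A host was assigned by position alone, as a gene on the same strand that spans the snoRNA gene, and processing from it was not tested. Of these genes, 33 lay in an intron of a host gene. Among them were the U3 genes Rnu3b1, Rnu3b2, Rnu3b3 and Rnu3b4, which lay within Tex14. Another 31 lay in a host gene and overlapped an exon of at least 1 of its transcripts, and 6 had no host. The sequences were searched, on the strand of the gene, for GATGA in the first 20 bases, which is the core of box C, and for CTGA in the last 15 bases, which is box D. Both were found in 37 of the 43 genes of SNORD families and in none of the 13 genes of SNORA families. The share was 20.8% in the 1559 snoRNA and scaRNA transcripts of the annotation, which mix all classes. These boxes define the C/D class, so the shares are a description and not a test. The triplet ACA stood before the last 3 bases in 9 of the 13 SNORA genes and in 19.3% of the same 1559 transcripts. The gene sequences matched for 6 families on which the results turn are given 5′ to 3′ from GENCODE on GRCm38, with these letters in capitals: 1 family that passed the test, 2 that did not but had an unadjusted p under 0.05, and 3 that describe how libraries varied. SNORD10 and SNORD28 matched no gene by name.
Snord93 (chr5:23852210-23852280, + strand, intron of 2700038G22Rik, higher in DP): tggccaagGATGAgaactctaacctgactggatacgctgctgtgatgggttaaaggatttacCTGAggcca
Snord64 (chr7:59978808-59978874, - strand, within Gm38393, unadjusted p under 0.05): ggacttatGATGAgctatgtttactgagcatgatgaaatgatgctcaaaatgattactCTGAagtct
Snora21 (chr11:97781639-97781775, - strand, intron of Rpl23, unadjusted p under 0.05): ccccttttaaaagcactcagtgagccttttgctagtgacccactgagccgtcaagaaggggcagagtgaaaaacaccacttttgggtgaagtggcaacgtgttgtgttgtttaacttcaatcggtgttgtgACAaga
Snord57 (chr2:130278016-130278087, + strand, within Nop56, tracked the rRNA share): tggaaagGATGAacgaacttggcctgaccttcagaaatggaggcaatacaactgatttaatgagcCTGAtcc
Snord104 (chr11:106500993-106501062, + strand, no host, lowest in DP replicate 2): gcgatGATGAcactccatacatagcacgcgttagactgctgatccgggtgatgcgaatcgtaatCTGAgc
Snord118, which encodes U8 (chr11:69073427-69073561, + strand, no host, varied most): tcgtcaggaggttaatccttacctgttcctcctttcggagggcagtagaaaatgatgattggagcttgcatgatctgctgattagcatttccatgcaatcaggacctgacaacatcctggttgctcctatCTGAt

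Library totals ran from 24266300 to 27662601 counts, of which 11057 to 32500 were snoRNA counts. CPM values (counts per 1000000) were computed on the totals of the 1891 named small RNA entries with a mean count above 10. They were scaled by TMM, edgeR's correction for composition. Levels of different families are shares of counts, not per length unless stated. The tissue label was checked on marker miRNAs. As CPM of all counts, the median over libraries was 23477 for miR-143-3p, 3917 for miR-378a-3p and 62354 for the endothelial miR-126a-3p. Of the neuronal miRNAs, miR-124-3p had a median of 0.445 and a highest value of 0.863. The median of miR-9-5p was 3.55 and its highest value 5.56. The leukocyte miR-150-5p, miR-223-3p, miR-155-5p and miR-142a-5p had medians of 4525, 318, 59.1 and 18.04. The median of miR-150-5p was thus above that of miR-378a-3p. Markers of other tissues were high in some libraries. The hepatocyte miR-122-5p had a median of 17.96 and reached 242, and the muscle miRNAs miR-1a-3p, miR-133a-3p and miR-206-3p had medians of 16.5, 3.23 and 2.25 and reached 209, 40.1 and 359. The pancreatic miR-375-3p had a median of 28.2 and reached 66.9. The part of all these markers in the snoRNA values was not tested. The rRNA share of all counts was 0.267% to 0.691% in DP libraries and 0.287% to 0.687% in DR libraries. The share of mature miRNAs was 45.9% ± 1.55 (SD, n = 15) in DP, from 43.2% to 48.9%, and 48.3% ± 0.797 (SD, n = 14) in DR, from 47.1% to 49.6%, and its part in the results was not tested. DP replicate 2 stood apart from the other libraries in its snoRNAs, as described below, and the comparison is given with and without it. Within the snoRNA counts the median Pearson correlation of its log2 CPM over the 99 families with the other 28 libraries was 0.65, and in every other library this median was 0.79 or above. The next lowest medians were those of DP replicates 3, 4, 8 and 11 and DR replicate 10, between 0.79 and 0.83, so 5 of these 6 libraries were DP.

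A small number of families held most of the counts. U3, which acts in the first cleavages of the ribosomal RNA precursor, had a mean of 7893 counts and made up 16.9% to 56.8% of the counts of the 99 families in a library. SNORD43 followed with 4035, SNORD57 with 1932, SNORD104 with 983 and SNORD74 with 658. U3, SNORD43 and SNORD57 together held 52.8% to 70.7% of the counts in each library. The 55 SNORD families held 52.3% of the counts, the 22 SNORA families 4.04%, the 7 scaRNA families 0.705% and the 15 families under other names, U3 among them, 42.9%. Over all members the median family had a mean of 33.2 counts, and 56 families had between 10 and 50. Afu_294, seventh by count with a mean of 380, carries a name from the fungus Aspergillus fumigatus and was left as the table gives it. The last families over the minimum were SNORA74 with a mean of 10.97 counts, SNORD19 with 10.6 and the joint entry Z195/SNORD33/SNORD32 with 10.2. The first under it were SNORD65 with 9.79, SNORD60 with 9.31 and SNORD35 with 9.21.

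Families with a single matched gene were compared within a host, per length. The whole count of a family was given to that gene, although reads of other copies or of look-alike sequences may be counted under the family name, so these are levels of families and not of single genes. In 7 hosts with 2 such families each, the higher family was 2.36 to 295 times the lower in DP and 1.79 to 319 times in DR, with medians of 4.32 and 3.81. Among these 7 pairs the spread was widest in Rpl3 and Nop56 and narrowest in Gas5, where the pair was SNORD78 and SNORD47. The Gas5 families SNORD74, SNORD44, SNORD81 and SNORD75 were over the minimum but matched no gene by name, so they were left out. Not per length, the median CPM over the libraries other than DP replicate 2 was 28.1 for SNORD74 and 0.751 for SNORD47. The narrow spread therefore holds for the matched pair and not for all Gas5 families. Snord57 and Snord110 both lie in Nop56, the gene of a core protein of C/D box particles. SNORD57 had 104 CPM per 100 bases in DP and 119 in DR. SNORD110 had 5.42 and 5.57, so the members of this pair were at least an order of magnitude apart in both groups. Snord43 and Snord83b both lie in introns of Rpl3, which encodes a protein of the large ribosomal subunit. SNORD43 reached 155 CPM per 100 bases in DP and 154 in DR against 0.527 and 0.483 for SNORD83. Snord43 is typed as a miRNA gene of 108 bases in GENCODE, and reads of a fragment shared with that annotation were not separated here. In Snhg12, SNORD99 had 9.33 and 8.61 CPM per 100 bases and SNORA44 2.16 and 2.27. These levels describe the libraries and were not tested.

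The comparison of DP with DR asked which families differed in gWAT before the onset of hyperglycemia. 3 of the 99 families were higher in DP at an adjusted p under 0.05 and none was lower, by the quasi-likelihood test of edgeR, the p-values being adjusted by the Benjamini-Hochberg method across the 1891 entries tested. Over all entries tested, 8.83% were higher, 7.3% lower and 16.1% changed in either direction, and for the snoRNA families the last share was 3.03%. 0 families were lower by DESeq2, limma-voom and edgeR's exact test too. At an unadjusted p under 0.05 there were 3 higher and 3 lower, against 14.1% and 12.3% of all entries, 26.4% together. The median log2 fold change was -0.04 over the 99 families, 41 of them positive, and -0.02 over all entries. The 3 families that rose were SNORD10, SNORD93 and SNORD28, all of them C/D box.

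SNORD10 had the smallest adjusted p. It ranged from 4.87 to 9.14 CPM in DP, with a median of 7.53, and from 3.84 to 6.65 in DR, with a median of 5.09. The ranges overlapped, yet 14 of 15 DP libraries lay above the DR median. The means were 7.34 ± 1.31 (SD, n = 15) and 5.19 ± 0.904 (SD, n = 14), and the log2 fold change was 0.50 ± 0.10 (SE), or 1.41-fold, with an edgeR adjusted p of 0.000462. The family had 152 counts per library on average, and 95 in the lowest library. Among libraries with a number below 200 it was 0.65 (10 DP, 6 DR, adjusted p = 0.000999). In those numbered 200 or above it was 0.20 (5 DP, 8 DR, adjusted p = 0.714). The difference between these library subsets, tested as an interaction, was -0.44 ± 0.18 (SE) with an unadjusted edgeR p of 0.0221 and an adjusted p of 0.999, so it did not pass.

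SNORD93 was the most evenly counted of the 3 families, and its gene sequence with both boxes is given above. It ranged from 11.7 to 18.8 CPM in DP, with a median of 13.4, and from 9.28 to 14.1 in DR, with a median of 10.8. All 15 DP libraries lay above the DR median, although the ranges overlapped. The means were 14.1 ± 2.05 (SD, n = 15) and 11.3 ± 1.66 (SD, n = 14), and the log2 fold change was 0.31 ± 0.08 (SE), or 1.24-fold, with an edgeR adjusted p of 0.00525. It was 0.39 below library number 200 (adjusted p = 0.00362) and 0.37 from 200 on (adjusted p = 0.206). With TMM computed from snoRNA families alone the log2 fold change of SNORD93 was 0.44 and did not pass (adjusted edgeR p = 0.144). Its coefficient of variation over all 29 libraries, 18.02%, was the second lowest of the 99 families, and Poisson counting error alone gives 5.71% at its mean of 307 counts.

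SNORD28 is processed from Snhg1, a non-coding host gene whose exons are not translated and whose introns hold C/D box snoRNAs. It ranged from 0.155 to 0.991 CPM in DP, with a median of 0.63, and from 0.229 to 0.643 in DR, with a median of 0.437. The ranges overlapped, and 1 DP library lay below every DR library. The means were 0.664 ± 0.197 (SD, n = 15) and 0.443 ± 0.139 (SD, n = 14), and the log2 fold change was 0.58 ± 0.19 (SE), or 1.49-fold, with an edgeR adjusted p of 0.0344. It was 0.72 below library number 200 (adjusted p = 0.0127) and 0.34 from 200 on (adjusted p = 0.902), and the interaction did not pass (-0.37 ± 0.40, SE, adjusted edgeR p = 0.999). It rested on 4 to 24 counts per library, where counting error alone gives a coefficient of variation of 27.3%. The call was lost in 9 of the 29 fits that left out 1 library, with an adjusted p of up to 0.0625 without DP replicate 9. The log2 fold change of SNORD28 also did not pass with limma-voom (adjusted p = 0.126), with no count minimum (0.11), with a term for library number 200 or above (0.062) or with TMM from snoRNA families alone (0.148). The leave-one-out losses were the fits without DR replicates 2, 4, 5, 12, 13 or 14 and without DP replicates 7, 9 or 14. SNORD10 and SNORD93 passed in all 29 of these fits.

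**Figure D1:**
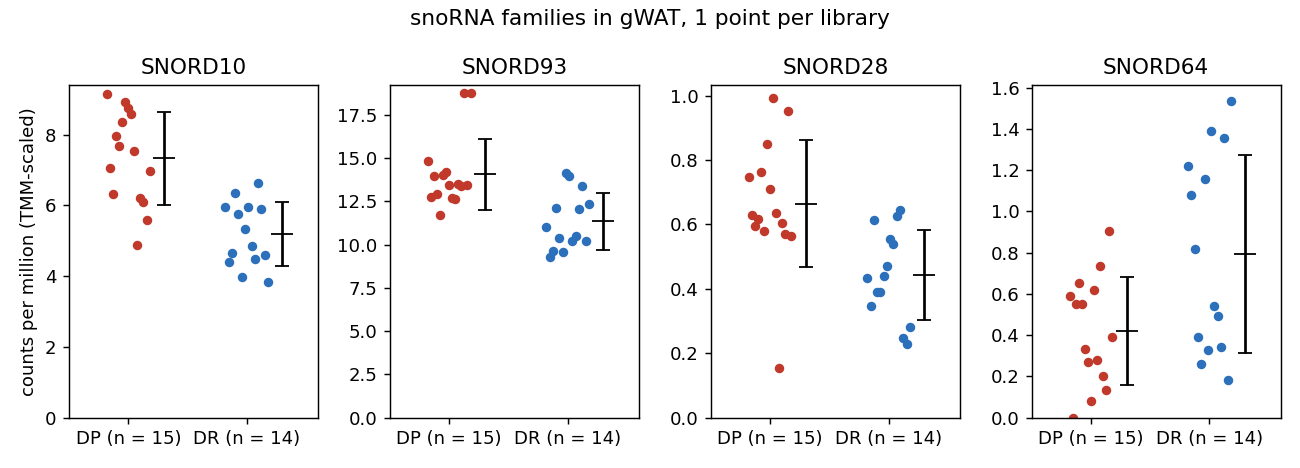
CPM (TMM-scaled, vertical axis from 0) of 4 snoRNA families in DP (n = 15, red) and DR (n = 14, blue) libraries, with 1 point per library and the mean ± SD in black. All 15 DP libraries lie above the DR median for SNORD93 and 14 of 15 for SNORD10 and SNORD28, while SNORD64 spreads widely in DR and did not pass the test.

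The families with the smallest p on the lower side did not pass. SNORD64, which lies in the imprinted Snrpn region, ranged from 0 to 0.907 CPM in DP, with a median of 0.39, and from 0.183 to 1.54 in DR, with a median of 0.679. Its log2 fold change was -0.91 ± 0.39 (SE), with an adjusted edgeR p of 0.116. SNORA21, from an intron of the ribosomal protein gene Rpl23, lay between 0.63 and 1.81 CPM in DP libraries and between 1.08 and 2.39 in DR libraries, and its log2 fold change was -0.39 ± 0.15 (SE, adjusted edgeR p = 0.083). SNORA54 spanned 0.748 to 5.26 CPM in the DP libraries and 2.5 to 5.92 in the DR libraries. Its log2 fold change was -0.47 ± 0.19 (SE, adjusted edgeR p = 0.0902). Without DP replicate 14 SNORA21 passed (adjusted edgeR p = 0.0487), and SNORA54 passed without DP replicate 5 (0.0482). By class, 16 of the 22 SNORA families had a negative log2 fold change and their median was -0.18, while 30 of 55 SNORD families were negative with a median of -0.04. None of the SNORA families passed, and the SNORA and SNORD classes were not tested against each other.

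**Figure D2:**
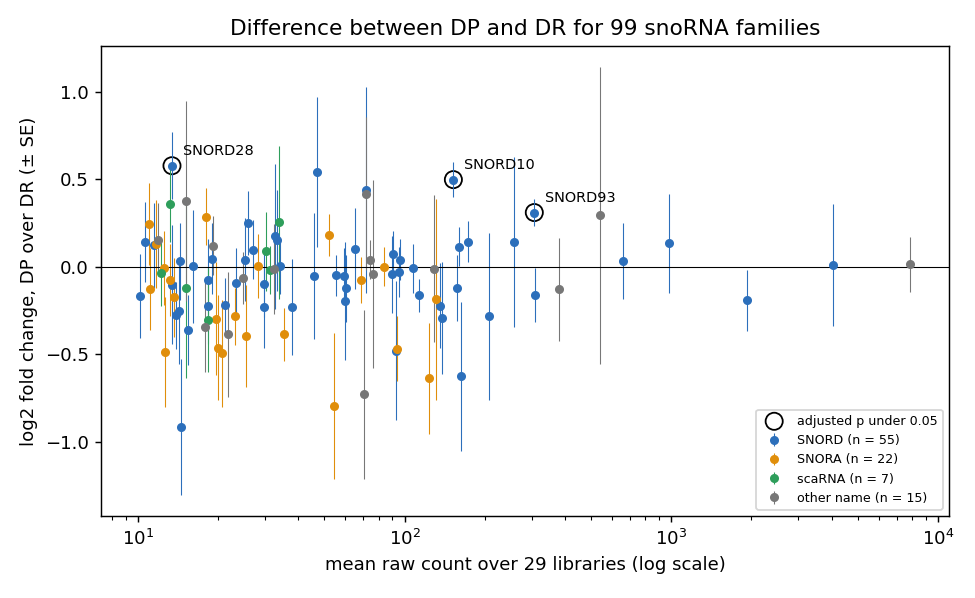
Log2 fold change of DP over DR (± SE) against the mean raw count over 29 libraries (log axis) for 99 snoRNA families, coloured by class, with circles around those at an adjusted p under 0.05. SNORD10, SNORD93 and SNORD28 are circled, and the 5 most counted families sit between -0.19 and 0.13.

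Most of the 96 families that did not pass were close to 0. Of these, 65 had a log2 fold change within 0.25 of 0 and 6 had one beyond 0.5, and their SE ranged from 0.09 to 0.85 with a median of 0.23. The 6 were SNORD64, SNORA7, Z101, SNORA73 and SNORD63 on the lower side and SNORD49 on the higher side. SNORA7 had the largest of the SNORA values, -0.79 ± 0.42 (SE, adjusted edgeR p = 0.227). It spanned 0.321 to 6.89 CPM in DP libraries, with a median of 1.24, and 0.559 to 6.61 in DR libraries, with a median of 2.77. The group ranges almost coincided, and 3 of 15 DP libraries were above the DR median. It passed in the fit without DP replicate 15. SNORD49 spanned 0.197 to 9.17 CPM in DP libraries and 0.217 to 3.36 in DR libraries, and its log2 fold change was 0.54 ± 0.43 (SE, adjusted edgeR p = 0.471). In 59 of the 99 families the coefficient of variation over all libraries was more than 2 times that of Poisson counting.

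Groups of families known by their host or role gave few calls. Of the snoRNAs of Snhg1, 4 of 8 passed the minimum and 1, SNORD28, rose, where 8.83% of all entries did. That call was lost with limma-voom and in 9 of 29 fits without 1 library. SNORD26, SNORD30 and SNORD22 of the same host had log2 fold changes of 0.25, 0.14 and 0.10 that did not pass, and the median of the 4 was 0.20. The snoRNAs of Gas5, a host RNA that accumulates when growth stops, had 6 of 8 families over the minimum, none of which passed, with log2 fold changes from -0.23 to 0.17. The families in Rpl13a, known from cell culture as needed for the death of cells under lipid overload, had 1 joint entry over the minimum of 3, at -0.17 (adjusted p = 0.752, edgeR). SNORD34 and SNORD35 were under the minimum. Of the imprinted families, SNORD64 was over the minimum and SNORD107 and SNORD115 were not, and the joint entry SNORD113/SNORD114 of the Dlk1-Dio3 region was also under it. The snoRNAs of Dlk1-Dio3 were therefore not compared.

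Families listed under cleavage of the ribosomal RNA precursor did not pass either, and being listed does not mean that each is needed for it. U3 took values of 136 to 535 CPM in DP libraries and 230.2 to 525 in DR libraries, with means of 330 ± 103 (SD, n = 15) and 327 ± 89.1 (SD, n = 14). Its log2 fold change was 0.01 ± 0.16 (SE, adjusted edgeR p = 0.979). U13, SNORD14 and SNORD22, which act on the small subunit RNA in yeast or vertebrates, were at 0.12, 0.14 and 0.10. SNORA73, the H/ACA family also called U17, had the most negative value, -0.64 ± 0.32 (SE, adjusted edgeR p = 0.201). The DP libraries spanned 0.825 to 7.97 CPM and the DR libraries 1.47 to 14.1. U8, needed for the large subunit RNA in frog oocytes, was at 0.29 ± 0.85 (SE), which leaves a wide interval. Of the 7 scaRNA families none passed, and they spanned -0.30 to 0.36 (median -0.02). The 3 families in the host genes Nop56 and Nop58, SNORD57, SNORD110 and SNORD56, were at -0.19, -0.04 and -0.05.

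snoRNAs are used as reference RNAs in RT-qPCR, so their spread in these libraries was described. Of 10 such families, 5 were over the minimum, and their log2 fold changes were between -0.22 and 0.15 with none passing. SNORD61 had the lowest coefficient of variation of all 99 families, 17.2%, with 2.94 to 6.41 CPM in DP and 3.58 to 6.36 in DR. Its mean was 4.46 ± 0.771 (SD, n = 15) in DP and 4.99 ± 0.787 (SD, n = 14) in DR, a log2 fold change of -0.16 ± 0.09 (SE, adjusted edgeR p = 0.283), and 1 of 15 DP libraries lay above the DR median. SNORD87 and SNORD44 varied by 31.5% and 36.3%, SNORD47 by 38.7% and SNORD95 by 59.4%. The median over all 99 families was 39.8%. The family MBII-202, a RefSeq synonym of the reference RNA Snord68, was not counted among the 5.

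The larger differences in the data lay between libraries of one group. DP replicate 2 had the lowest CPM of all 29 libraries in 46 of 99 families without ties, and 21 families were below 10% of the median of the other libraries. SNORD43 had 53 counts there and 1223 or more in each other library. SNORD104 had 68 against at least 336, SNORD74 had 66 against at least 371, and SNORD30 had 2 against at least 28. SNORD59 and SNORD64 had 0 counts in a total of 25931766, which allows up to 3 counts, or 0.116 CPM of all counts, counting error only. In the same library U3 was at 76.6%, SNORD93 at 99.6% and SNORD14 at 105% of the median of the others, and Afu_294 was at 133%. The difference from the other libraries was thus uneven across families. SNORD43 and SNORD104 were also low in DP replicates 8 and 13 and DR replicate 5. In the fit without DP replicate 2, SNORD10 had a log2 fold change of 0.50, SNORD93 0.32 and SNORD28 0.58, with edgeR adjusted p of 0.00062, 0.00482 and 0.0385. The same 3 families passed when DP replicates 2, 3, 4, 8 and 11 and DR replicate 10 were left out together, a choice made after the data were seen. With 10 DP and 13 DR libraries the log2 fold changes were 0.52, 0.34 and 0.75, with edgeR adjusted p of 0.00181, 0.0181 and 0.00501.

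**Figure D3:**
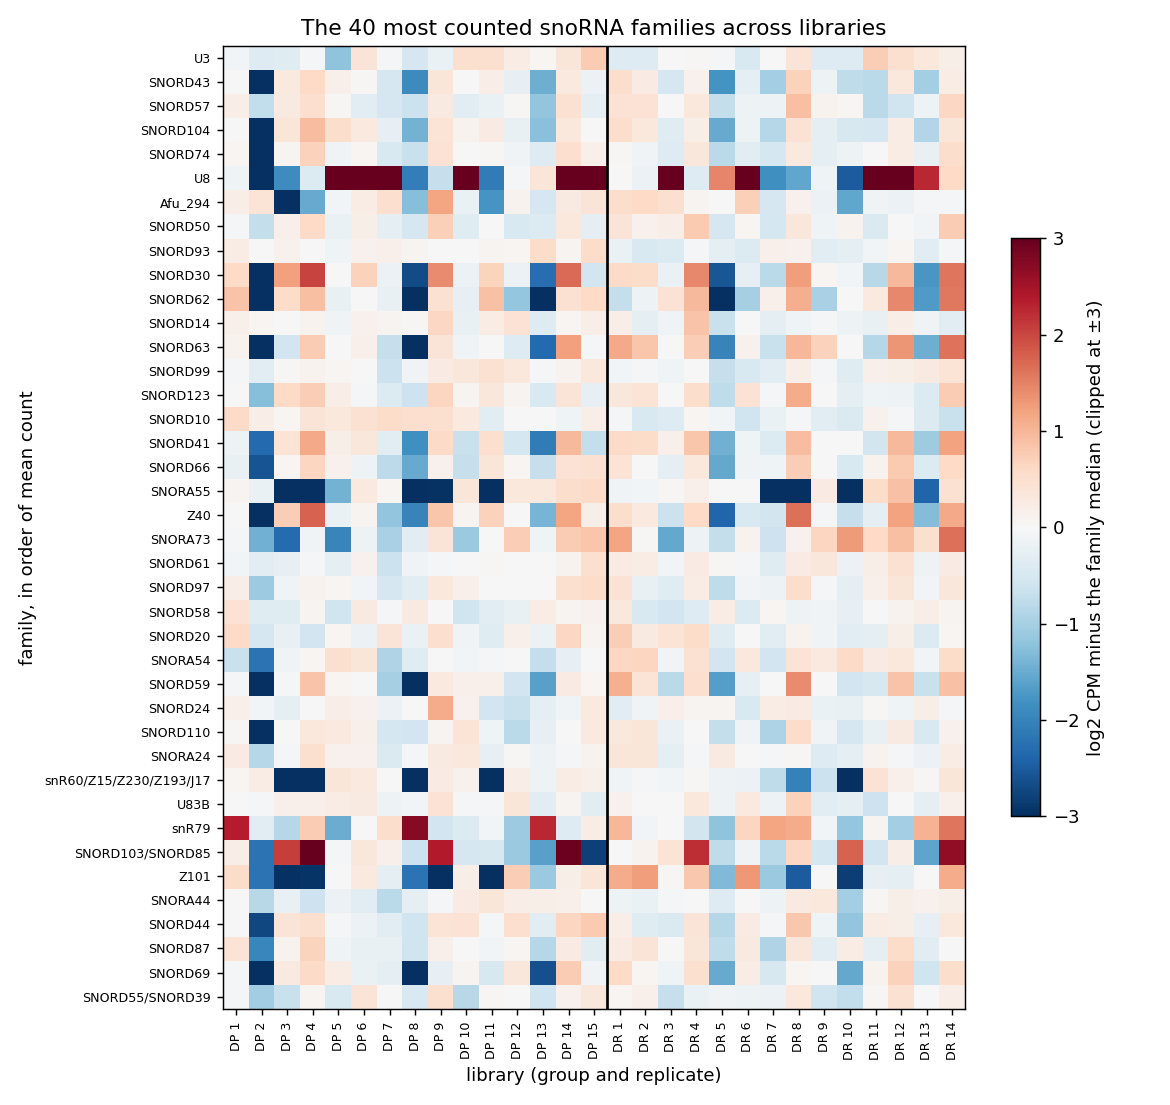
Log2 CPM minus the family's median over 29 libraries, clipped at ±3 (colour), for the 40 most counted snoRNA families (rows, by mean count) in DP libraries (left of the black line) and DR libraries (right). DP replicate 2 is blue in many rows, only palely in U3 (76.6% of the median of the others), and not in SNORD93 or SNORD14. U8 and SNORA55 vary widely between libraries within both groups.

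A second kind of variation was a split between low and high libraries, with a clear gap in some families only. SNORA55 had 3 to 58 counts in 10 libraries and 143 to 300 in the other 19, with no library between, and the low libraries were 6 of DP and 4 of DR. U8 ranged from 2 to 2595 counts, with a coefficient of variation of 137%, the highest of the 99 families. It was below 200 counts in 9 DP and 8 DR libraries. These had 2 to 130 counts and the other 12 had 221 to 2595, so U8 varied widely without a clear step. The entry snR60/Z15/Z230/Z193/J17 had 0 to 22 counts in 6 libraries and 47 to 121 in the other 23. All 6 of these were among the 10 libraries low for SNORA55, that is 100% of the one list and 60% of the other. Afu_294 was below 200 counts in 5 libraries, DP replicates 3, 4, 8 and 11 and DR replicate 10. It had 28 to 161 counts there and 231 to 856 in the other 24, again without a wide gap. All 5 were also low for SNORA55, U8 and snR60/Z15/Z230/Z193/J17. Z101, cut at 30 counts, showed no step, with up to 29 counts in 10 libraries and 31 or more in the other 19. The joint entry SNORD103/SNORD85 varied by 127%. It had a median of 32 counts in DP and 33.5 in DR, and reached 412 in DP replicate 4, where 18 of the 99 families had their highest CPM. These limits were set after the counts were seen, and no test was made on them. Nothing in the labels separates these libraries, and the log2 fold changes between DP and DR were -0.19 for SNORA55, 0.29 for U8 and -0.13 for Afu_294, none of which passed.

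**Figure D4:**
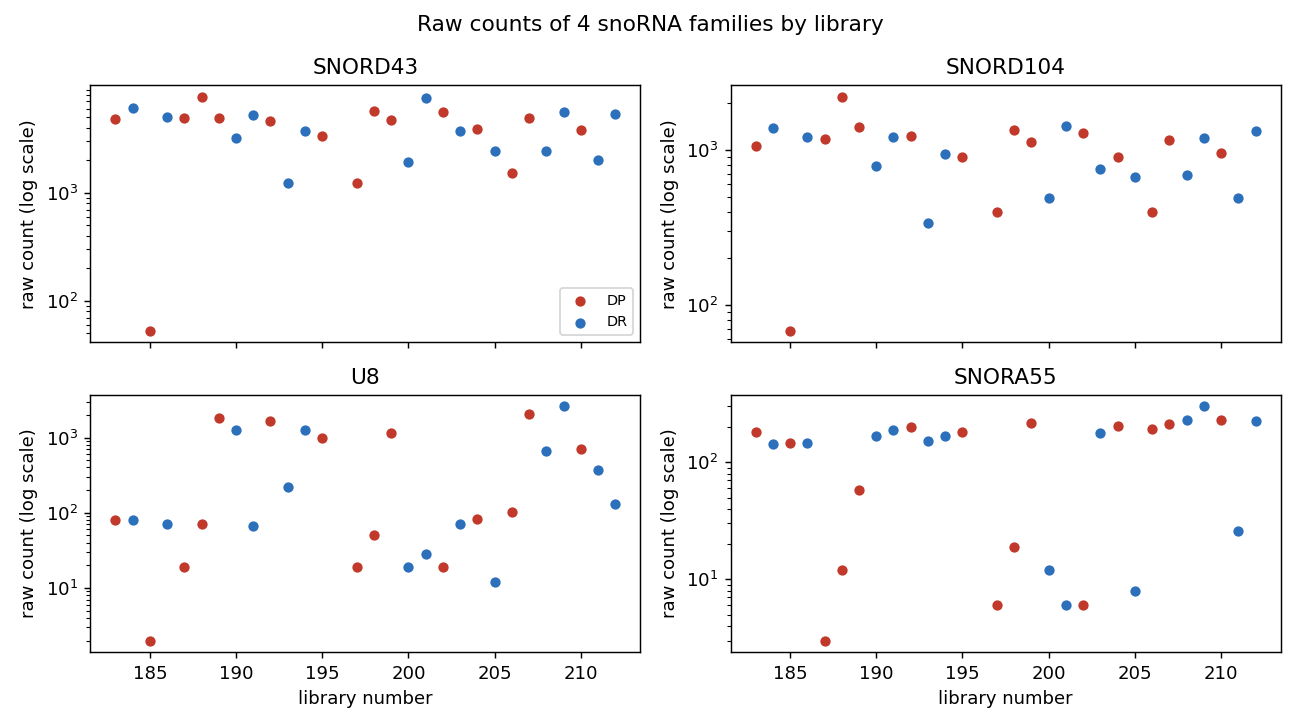
Raw counts (log axis) of SNORD43, SNORD104, U8 and SNORA55 against library number for DP (red) and DR (blue). SNORD43 and SNORD104 fall to 53 and 68 counts in DP replicate 2, while SNORA55 splits into 10 libraries of 58 counts or fewer and 19 of 143 or more, from both groups.

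Some families, few of them named SNORA, moved with the share of ribosomal RNA fragments in a library. The log2 CPM of each entry other than rRNA was correlated with the log2 rRNA share over the 29 libraries, with 100000 permutations and adjustment over 1882 entries, a relation looked for after the data were seen. In 18 of 99 families the correlation was positive at an adjusted permutation p under 0.05 and in none negative. Over all entries 3.72% were positive and 0.903% negative, 4.62% in all. By class, taken from the family name alone, the positive ones were 11 of 55 SNORD, 3 of 7 scaRNA and 3 of 15 families under other names. The names may not separate all H/ACA RNAs, since ACA stood before the last 3 bases in 2 of 5 matched scaRNA genes. Of the 22 SNORA families 1 was positive, or 4.55%, near the share of all entries. By Spearman's rho, 24 families were positive and none negative at an adjusted permutation p under 0.05, against 4.68% and 1.22% of all entries, 5.9% together. The median Pearson r was 0.31 over the 99 families and -0.05 over all entries. Both measures are shares of the same library, and the part of fragmentation or RNA quality was not tested.

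SNORD57 had the strongest relation of the 99 families, with a Pearson r of 0.84 (permutation p = 1e-05, the smallest that 100000 permutations can give, adjusted p = 0.00538) and a Spearman rho of 0.85 (permutation p = 1e-05, adjusted p = 0.00188). Without the 2 libraries farthest from the median rRNA share r was 0.81, and without DP replicate 2 it was 0.86. It was 0.79 within DP and 0.93 within DR, 0.83 below library number 200 and 0.87 from 200 on. SNORD57 spanned 35.3 to 114 CPM in DP, with a median of 69.5, and 45.8 to 150 in DR, with a median of 81.8. The ranges of DP and DR overlapped from 45.8 to 114 CPM. Next came U2-19, with r of 0.73, SNORD123 with 0.69 and SNORD95 with 0.68. With the rRNA share as a term in the model, the 3 families SNORD10, SNORD93 and SNORD28 were again the ones higher in DP. Their own r with the rRNA share was -0.02, -0.12 and 0.06.

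**Figure D5:**
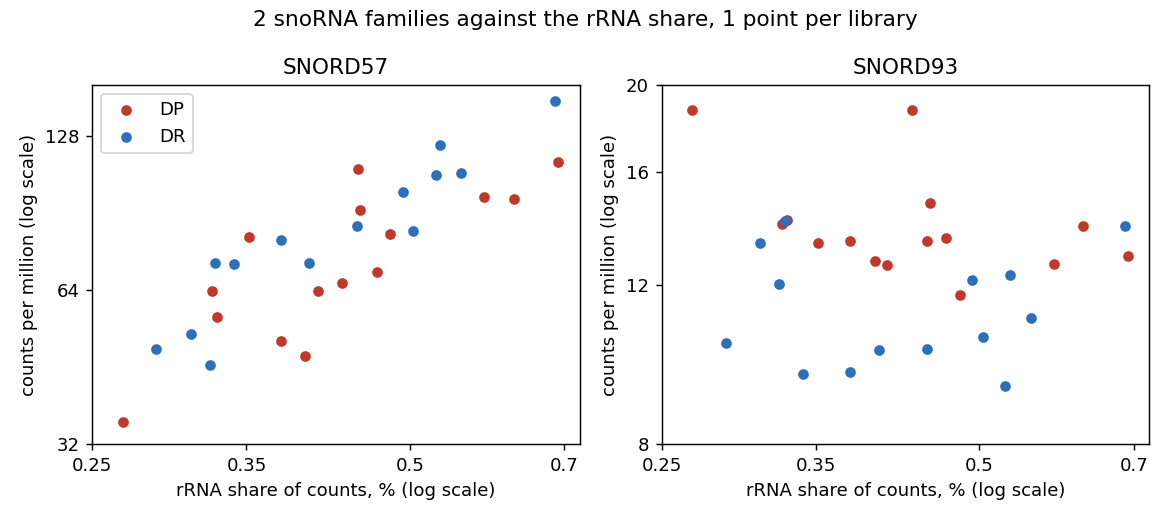
CPM of SNORD57 (left) and SNORD93 (right) against the rRNA share of all counts in percent, both on log axes, with 1 point per library for DP (red) and DR (blue). SNORD57 rises with the rRNA share in both groups (r of 0.79 and 0.93), while SNORD93 shows no such rise (r of -0.12 over all libraries), with all 15 DP points above the DR median.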

How the data were processed

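Total RNA of gWAT was extracted with the miRNeasy kit and its small RNAs sequenced on a BGISEQ platform. The authors deposited 1 table of raw read counts per small RNA and library, mapped with Bowtie2 to mm10 per the submitters' processing notes. How reads matching several entries were counted was not given in the sources used here. No family name was repeated among the 99 members. Exon, intron, intergenic and repeat entries, 6.89% to 12.1% of the counts, were left out of library sizes and tests. Entries with a mean count above 10 (1891) were fitted together with edgeR 4.0.16 in R 4.3.3 (TMM, quasi-likelihood test, DP against DR, no covariate). Benjamini-Hochberg adjustment ran over all of them. The test was checked on simulated counts. Alternatives used DESeq2 1.42.0, limma 3.58.1, other scalings and minimums, library number and omitted libraries. Named families were those on lists by host or role, the 10 most counted, those past the threshold or with the 5 smallest p, and 3 on each side of the minimum. U2-19, SNORD59, SNORD83, SNORD49, SNORD63, SNORD99, SNORD103/SNORD85, SNORD123, SNORA7, SNORA44, SNORA55, Z101, MBII-202 and the snR60 entry were added to the named families once their values had been seen. The members and lists were chosen with earlier results of these data known. No paired analysis was possible because replicate numbers follow accession order. The p-values of the group comparison set the difference between DP and DR against the spread between libraries. The permutation p-values test a correlation over libraries.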

Additional observations from a re-analysis of the deposited data

How the results depend on the processing

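The count of families higher in DP was 3 and stayed between 2 and 3 in all alternatives but a pair. With TMM computed from snoRNA families alone it was 1 (SNORD10), and the median log2 fold change over all entries moved from -0.02 to 0.08. In the libraries numbered 200 or above, 5 DP and 8 DR, it was 0, with 2 families at an unadjusted p under 0.05 and 6 of 1891 entries called at all. In these fits the log2 fold change of SNORD93 was 0.44 and 0.37 and not called (adjusted p = 0.144 and 0.206), and SNORD10 was not called in the second (0.714). SNORD28 was lost in these fits too, and also with no count minimum (adjusted p = 0.11), with limma-voom (0.126) and with a term for library number 200 or above (0.062). Leaving out 1 library gave 2 to 3 families higher and 0 to 1 lower. The lower ones were SNORA54 without DP replicate 5 (adjusted p = 0.0482), SNORA21 without DP replicate 14 (0.0487) and SNORA7 without DP replicate 15. No named value that passed reversed its sign, while 23 of the 37 named families that did not pass changed sign in at least 1 alternative. Summing families of one name could not be run, since no name repeats among the 99 members. Families of 10 to 50 counts have a counting error of 14.6% or more per library, and all 99 families varied by more than counting error.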

Other observations

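Of the 391 snoRNA families in the table, 291 were counted at a mean of 10 or below and 1 had no count in any library. SNORD65, the first under the minimum, had 4 to 21 counts per library, with a mean of 9.27 in DP and 10.4 in DR.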
